A study of Mus musculus with 4 samples.

Results

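Osteoblasts and osteocytes are described here through 31 of their genes, out of 22493 gene names on the array, with the collagens left out. A probe belonged to the group when the gene name given by the scanner software was one of the 31, and the brightest probe stood for a gene with several. Of the 31 genes, 29 were measured, which means that the software called at least 1 probe well above background on at least 1 array. Tnn (tenascin N, a matrix protein) and Tnfsf11 (RANKL, the signal for osteoclast formation) had no probe well above background. Of the 29 measured genes, 26 were well above background on all 4 arrays, and Runx2, Dlx6 and Mmp13 were not.

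RNA of the mouse cochlea was hybridised to 1 Agilent 1-colour array for each of 4 groups, in a screen for genes of outer hair cells. WT DT(-) and WT DT(+) mice carry no transgene, and OHC-TRECK DT(-) and OHC-TRECK DT(+) mice carry a receptor for diphtheria toxin (DT). The DT(+) groups received 50 μg of DT per kg of body weight 7 days before the cochleae were taken, and the DT(-) groups received none. All 4 groups were B6J mice at an age of 5 weeks, with an n of 8 from 4 females and 4 males.

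In OHC-TRECK mice, a stretch of the mouse Slc26a5 (prestin) gene drives a form of human HB-EGF, the protein that DT binds, and the mice came from 1 founder line. Wild-type mouse cells bind the toxin poorly. The RNA of males and females was pooled within a group, so no array shows the variation between animals and no replicate check was possible. The labels do not say how much of the bone around the cochlea was taken with it.

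Osteoblasts lay down bone matrix and bring it to mineralise, and those that become buried in it turn into osteocytes, which sense load and regulate phosphate and bone formation. In the ear these cells build and maintain the otic capsule, the dense bone that encloses the cochlea. The capsule is remodelled very little in adult life, and osteoprotegerin made by the inner ear is known to restrain its resorption.

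The removal of outer hair cells can be read on the arrays. Of 7 outer hair cell genes, 7 were measured. All 7 were lower in OHC-TRECK DT(+) than on each of the 3 other arrays, beside 31.7% of all measured genes. Their median log2 ratio was -2.37 against OHC-TRECK DT(-), -2.28 against WT DT(-) and -2.24 against WT DT(+). Ocm (oncomodulin, a calcium buffer), the brightest of them, had log2 levels of 4.36 in WT DT(-), 4.21 in WT DT(+), 4.35 in OHC-TRECK DT(-) and 1.97 in OHC-TRECK DT(+). Ocm, Strc, Chrna9, Chrna10 and Lmod3 were each at least 2-fold lower in all 3 comparisons. Slc26a5 itself was not well above background in OHC-TRECK DT(+), at least 1.31-fold lower than in OHC-TRECK DT(-). Ikzf2 (a transcription factor of these cells) was nearly flat, with log2 ratios of -0.01, -0.06 and -0.10 against OHC-TRECK DT(-), WT DT(-) and WT DT(+).

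A log2 level here is the intensity of a probe divided by the 75th percentile of its array, so that 0 marks that percentile, and a log2 ratio is the difference of 2 levels of the same probe. Probes differ in how strongly they bind, so levels of different probes are not amounts of RNA that can be ranked. The brightest gene of a list is the one with the strongest signal, and the summed levels of a list serve to follow it from array to array. Where 1 side of a ratio was not well above background, it was raised to the lowest signal called well above background on that array, and the fold is then given as "at least". In pooled tissue RNA, fewer cells of a type and less RNA per cell cannot be told apart.

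Most of the 29 measured members had their lowest level in OHC-TRECK DT(+), by small steps. OHC-TRECK DT(+) was the lowest of the 4 arrays for 18 of 29 members, beside 31.7% of all 17706 measured genes. WT DT(+) was the highest for 13 of 29 members, beside 15.3% of all genes. The members thus lay at the low end of OHC-TRECK DT(+) and at the high end of WT DT(+) more often than genes in general did. The list was chosen with earlier results of these data known, so these counts describe it and do not test it. Ibsp and Sparc were lowest in OHC-TRECK DT(+) by only 0.02 and 0.01 on the log2 scale, less than the spread of repeated spots given below. Because of dim signals, no array could be called lowest for Runx2 and Dlx6.

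The other places in the order were closer to the shares over all genes or below them. WT DT(-) was lowest for 2 members, beside 19.7% of all genes, and highest for 7, beside 29.8%. WT DT(+) was lowest for 3 members, beside 21.5% of all genes, and OHC-TRECK DT(-) was lowest for 4, beside 15.0%. OHC-TRECK DT(-) was highest for 4 members, beside 19.5% of all genes, and OHC-TRECK DT(+) was highest for 4, beside 31.2%. The 4 members highest in OHC-TRECK DT(+) were Pdpn, Mmp14, Tnfrsf11b and Msx2.

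**Figure D1:**
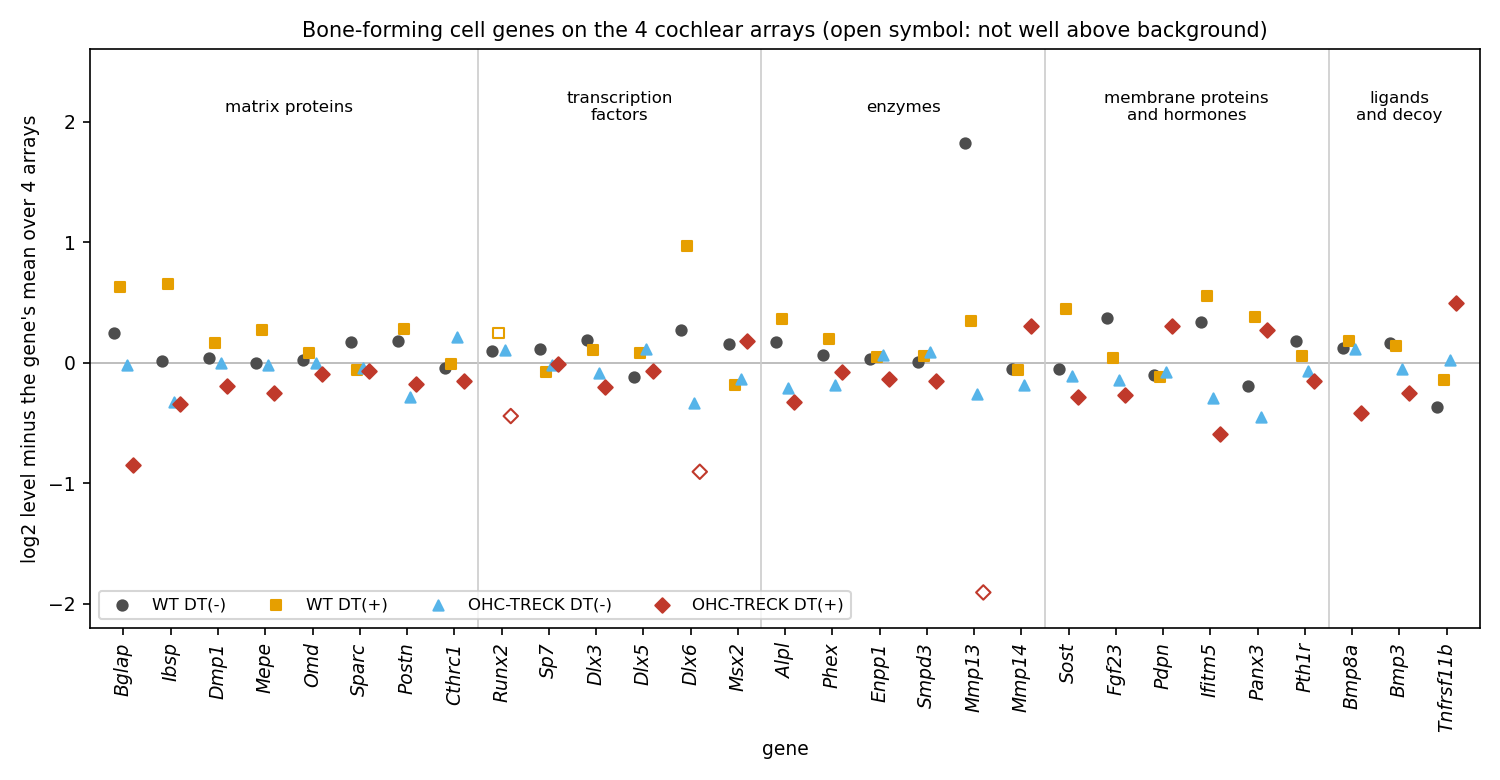
Log2 level of each measured gene on the 4 arrays, drawn as the difference from the gene's own mean over the arrays, with genes grouped by role and open symbols for signals not well above background. OHC-TRECK DT(+) is the lowest of the 4 arrays for 18 of 29 genes, and the widest spread is that of Mmp13.

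The ratio of OHC-TRECK DT(+) to each other array was taken as a gauge of bone-forming cells after outer hair cell removal. These 3 comparisons share the OHC-TRECK DT(+) array, so they are given side by side and are not independent of each other. By their labels, OHC-TRECK DT(-) differs from it in the toxin alone and WT DT(+) in the transgene alone, but the pooled animals differ too. Against OHC-TRECK DT(-), 20 of 28 members with a ratio were lower, beside 52.4% of all genes. The median log2 ratio was -0.12, beside -0.01 for all genes. Against WT DT(-), 23 of 29 were lower and the median was -0.24, beside 54.1% of all genes and -0.02. Against WT DT(+), 23 of 28 were lower and the median was -0.29, beside 48.7% of all genes and 0.01.

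Few members were lower by a large step. Against OHC-TRECK DT(-), 0 of 29 members were 2-fold lower, beside 1.39% of all genes, and 2 were 1.5-fold lower (Bglap and Mmp13), beside 3.69%. Against WT DT(-), 2 of 29 were 2-fold lower (Bglap and Mmp13), beside 1.81%, and 4 were 1.5-fold lower with Fgf23 and Ifitm5 added, beside 5.59%. Against WT DT(+), 4 of 28 were 2-fold lower (Bglap, Dlx6, Ifitm5 and Mmp13), beside 1.91%, and 8 were 1.5-fold lower with Alpl, Bmp8a, Ibsp and Sost added, beside 4.41%. With genes well above background on all 4 arrays alone, which leaves out Mmp13 and Dlx6, 1 member was 2-fold lower against WT DT(-) and 2 against WT DT(+). As reported, the comparison with WT DT(+), the array on which many members were highest, holds the most members lower by either fold. The comparison with OHC-TRECK DT(-) holds the fewest. With another background correction (normexp) the 2-fold count against WT DT(+) fell from 4 to 2, so its lead at 2-fold depends on that choice.

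Members higher by 1.5-fold were about as frequent as among all genes. Against OHC-TRECK DT(-), 1 of 29 was 1.5-fold higher (Panx3), beside 5.07% of all genes. Tnfrsf11b was the 1 member 1.5-fold higher against WT DT(-), beside 4.60% of all genes, and the 1 member 1.5-fold higher against WT DT(+), beside 3.94%.

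The transgene without toxin went with lower levels as well. In OHC-TRECK DT(-) against WT DT(-), 22 of 29 members were lower with a median log2 ratio of -0.21, beside 52.4% of all genes and -0.01. In that comparison 1 member was 2-fold lower (Mmp13), beside 2.03% of all genes, 3 were 1.5-fold lower (Dlx6, Ifitm5 and Mmp13), beside 4.03%, and 0 were 1.5-fold higher, beside 2.07%. The median of the members was -0.12 in this comparison with quantile normalization and -0.13 with the mean of a gene's probes in place of the brightest. This comparison and the one of the toxin within OHC-TRECK mice use the OHC-TRECK DT(-) array on opposite sides, so a high or low reading of that array would move them in opposite directions.

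The toxin without the transgene went with slightly higher levels. In WT DT(+) against WT DT(-), 10 of 28 members with a ratio were lower and 18 were higher, with a median log2 ratio of 0.06, beside 58.2% of all genes lower and a median of -0.03. Of 29 members, 1 was 2-fold lower (Mmp13), beside 0.937% of all genes, the same 1 was 1.5-fold lower, beside 2.47%, and 2 were 1.5-fold higher (Dlx6 and Ibsp), beside 3.01%.

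The change with the toxin in OHC-TRECK mice minus the change with it in WT mice could be taken for the 26 members well above background on all 4 arrays. Its median was -0.16 on the log2 scale, with 16 members below 0 and 10 above, beside a median of 0.01 and 47.6% below 0 for 15242 genes. The lowest value was -1.21 for Bglap, and the highest was 0.66 for Msx2. The median was -0.08 with the mean of a gene's probes, -0.09 with another background correction (normexp) and -0.08 with probes that match a RefSeq mRNA. This difference draws on all 4 arrays at once, and its size with 1 array per group carries no error.

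**Figure D2:**
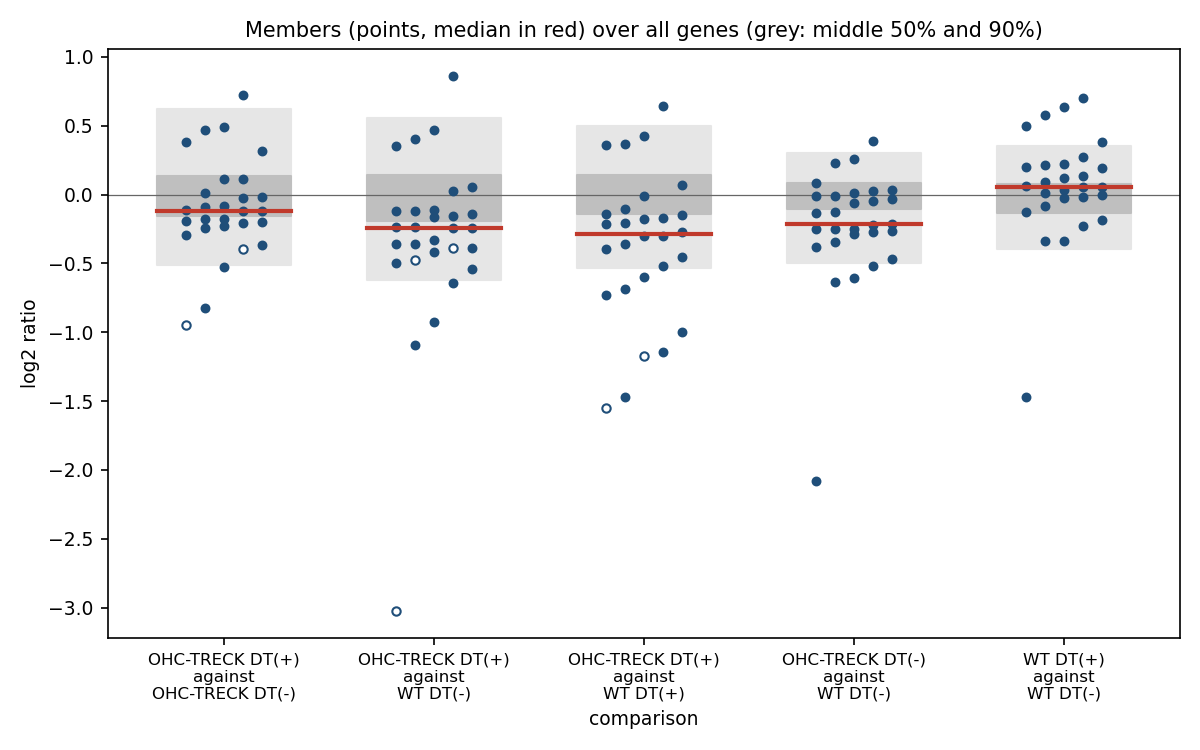
Log2 ratios of the measured genes in the 5 comparisons, with the median in red, open points for lower bounds, and grey bands for the middle 50% and the middle 90% of all genes. The median of the members lies below 0 in 4 comparisons and at 0.06 in WT DT(+) against WT DT(-).

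Among the matrix proteins, osteocalcin stood out. The chosen probe of Bglap (osteocalcin, the mineral-binding protein of mature osteoblasts) had log2 levels of 2.54 in WT DT(-), 2.92 in WT DT(+), 2.28 in OHC-TRECK DT(-) and 1.45 in OHC-TRECK DT(+). The level was highest in WT DT(+), and OHC-TRECK DT(+) lay below all 3 others by more than these differed among themselves, with a gap of 0.83 to the nearest against a range of 0.65. Bglap was 1.77-fold lower in OHC-TRECK DT(+) than in OHC-TRECK DT(-), 2.13-fold lower than in WT DT(-) and 2.78-fold lower than in WT DT(+). With the mean of its 2 probes, the log2 ratio against WT DT(-) went from -1.09 to -0.75, which is short of 2-fold. In OHC-TRECK DT(-) it was 1.20-fold lower than in WT DT(-), and in WT DT(+) it was 1.30-fold higher.

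Ibsp (bone sialoprotein, which seeds mineral) had the same order of arrays with different steps. Its log2 levels were 1.32 in WT DT(-), 1.95 in WT DT(+), 0.98 in OHC-TRECK DT(-) and 0.96 in OHC-TRECK DT(+). Both WT arrays were above both OHC-TRECK arrays, and the OHC-TRECK arrays differed by a log2 ratio of -0.02. Against WT DT(+), Ibsp was 1.99-fold lower in OHC-TRECK DT(+), just short of 2-fold, and against WT DT(-) it was 1.28-fold lower.

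Of the 8 measured matrix protein genes, 7 were lower in OHC-TRECK DT(+) than in OHC-TRECK DT(-), beside 52.4% of all genes. The median log2 ratio was -0.14. Against WT DT(-) 8 were lower, beside 54.1% of all genes, with a median of -0.24. Against WT DT(+) 8 were lower, beside 48.7%, with a median of -0.41. Without the toxin, 7 were lower in OHC-TRECK than in WT, beside 52.4%, with a median of -0.13. In WT DT(+) against WT DT(-) 1 was lower, beside 58.2%, and the median was 0.11. Sparc was the 1 lower in WT DT(+).

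The osteocyte matrix genes differed by less than 1.5-fold between arrays, with the widest step for Mepe, 1.44-fold lower in OHC-TRECK DT(+) than in WT DT(+). Mepe (an osteocyte phosphoglycoprotein that restrains mineralisation) had log2 levels of 1.72 in WT DT(-), 2.0 in WT DT(+), 1.71 in OHC-TRECK DT(-) and 1.48 in OHC-TRECK DT(+). The untreated arrays of both genotypes were nearly equal, with the toxin arrays on either side of them. Dmp1 (dentin matrix protein, needed for osteocyte maturation and phosphate balance) had log2 levels of 0.72, 0.84, 0.67 and 0.48 in WT DT(-), WT DT(+), OHC-TRECK DT(-) and OHC-TRECK DT(+). Omd (osteomodulin, a proteoglycan that binds collagen fibrils) had log2 levels of 1.81, 1.87, 1.79 and 1.69 in the same order. For both genes WT DT(+) was highest and OHC-TRECK DT(+) lowest.

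Postn (periostin, a protein of periosteum and ligament) was lower on both OHC-TRECK arrays, with log2 levels of -2.65 in WT DT(-), -2.56 in WT DT(+), -3.12 in OHC-TRECK DT(-) and -3.01 in OHC-TRECK DT(+). Cthrc1 (a secreted protein of cells that make collagen) had log2 levels of -1.11, -1.08, -0.85 and -1.22 in WT DT(-), WT DT(+), OHC-TRECK DT(-) and OHC-TRECK DT(+), with OHC-TRECK DT(-) highest. Sparc (osteonectin, a collagen-binding protein that many connective tissue cells also make) had log2 levels of 6.72, 6.49, 6.50 and 6.48 in that order, with WT DT(-) highest and the 3 others nearly equal.

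The master regulators of the osteoblast were dim or flat. Sp7 (osterix, required for osteoblast formation) had log2 levels of -3.66 in WT DT(-), -3.85 in WT DT(+), -3.79 in OHC-TRECK DT(-) and -3.78 in OHC-TRECK DT(+). Its 4 arrays were close together, with WT DT(-) highest. Runx2 (the factor that commits cells to the osteoblast lineage) was well above background in the DT(-) groups and not in the DT(+) groups. Its log2 levels were -5.05 in WT DT(-) and -5.04 in OHC-TRECK DT(-). The signal in WT DT(+) was -4.90, above both DT(-) groups, so no fall with the toxin in WT mice is read from the call. Runx2 was at least 1.32-fold lower in OHC-TRECK DT(+) than in OHC-TRECK DT(-). Its chosen probe matches a non-coding transcript, and its other 2 probes, which match mRNAs, were dim on every array.

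Dlx6 (a homeobox factor that acts with Dlx5 in bone formation) varied most among the transcription factors. Its log2 levels were -4.97 in WT DT(-), -4.27 in WT DT(+) and -5.57 in OHC-TRECK DT(-), and it was not well above background in OHC-TRECK DT(+). The WT arrays were above the OHC-TRECK arrays, with WT DT(+) highest. Dlx6 was at least 2.26-fold lower in OHC-TRECK DT(+) than in WT DT(+) and at least 1.39-fold lower than in WT DT(-). With normexp its log2 ratio went from -1.17 to -0.56 against WT DT(+), which is short of 2-fold. Against WT DT(-) it went from -0.47 to -0.18, so both bounds hold only for the background correction used here. No ratio to OHC-TRECK DT(-) could be given because the bound lay above that level.

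Its partner Dlx5 did not follow it, with log2 levels of -3.69 in WT DT(-), -3.49 in WT DT(+), -3.46 in OHC-TRECK DT(-) and -3.63 in OHC-TRECK DT(+). Dlx3 (a homeobox factor of bone, tooth and skin) had log2 levels of -0.04, -0.13, -0.31 and -0.43 in WT DT(-), WT DT(+), OHC-TRECK DT(-) and OHC-TRECK DT(+), with both OHC-TRECK arrays below both WT arrays. Msx2 (a homeobox factor of skull and osteoblast precursors) had log2 levels of -3.15, -3.49, -3.44 and -3.12 in that order. WT DT(-) and OHC-TRECK DT(+) were high for Msx2 and the 2 others low, so that the toxin went with a lower level in WT mice and a higher one in OHC-TRECK mice.

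The median log2 ratio of the transcription factors in OHC-TRECK DT(+) was -0.11 against OHC-TRECK DT(-), -0.25 against WT DT(-) and -0.15 against WT DT(+). It was -0.20 in OHC-TRECK DT(-) against WT DT(-) and -0.09 in WT DT(+) against WT DT(-). These medians rest on 5 or 6 genes each.

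Of the enzymes that act on mineral and matrix, Mmp13 (collagenase 3, made by late osteoblasts, osteocytes and hypertrophic cartilage cells) had the widest spread of all members. Its log2 levels were -2.42 in WT DT(-), -3.89 in WT DT(+) and -4.50 in OHC-TRECK DT(-), and it was not well above background in OHC-TRECK DT(+). WT DT(-) stood above all others, and either the toxin or the transgene went with a lower level. Mmp13 was at least 8.12-fold lower in OHC-TRECK DT(+) than in WT DT(-), at least 2.93-fold lower than in WT DT(+) and at least 1.93-fold lower than in OHC-TRECK DT(-). It was 4.22-fold lower in OHC-TRECK DT(-) and 2.77-fold lower in WT DT(+) than in WT DT(-), so its high reading on 1 array sets all 3 ratios to that array.

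Alpl (tissue-nonspecific alkaline phosphatase, which frees phosphate for mineral) separated the genotypes. Across the arrays its log2 levels were 0.83 in WT DT(-), 1.02 in WT DT(+), 0.45 in OHC-TRECK DT(-) and 0.33 in OHC-TRECK DT(+). Both OHC-TRECK arrays were below both WT arrays, with a small step between the OHC-TRECK arrays. Alpl was 1.09-fold lower in OHC-TRECK DT(+) than in OHC-TRECK DT(-), 1.41-fold lower than in WT DT(-) and 1.61-fold lower than in WT DT(+).

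Phex (a membrane peptidase of osteocytes that keeps FGF23 low) had log2 levels of -0.26 in WT DT(-), -0.13 in WT DT(+), -0.51 in OHC-TRECK DT(-) and -0.40 in OHC-TRECK DT(+), again with the OHC-TRECK arrays lower. Smpd3 (neutral sphingomyelinase 2, needed for mineralisation) had log2 levels of 0.22, 0.27, 0.30 and 0.06 in WT DT(-), WT DT(+), OHC-TRECK DT(-) and OHC-TRECK DT(+), and OHC-TRECK DT(+) lay below the narrow span of the others. Mmp14 (a membrane collagenase that macrophages and fibroblasts also make) went the other way, with log2 levels of -1.36, -1.36, -1.49 and -1.0 in that order. It was 1.40-fold higher in OHC-TRECK DT(+) than in OHC-TRECK DT(-), and the 3 other arrays were close together.

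Enpp1 (which makes pyrophosphate, an inhibitor of mineral) depended on the probe. By its chosen probe, which matches an Ensembl transcript and no RefSeq mRNA, the log2 levels were -0.09 in WT DT(-), -0.08 in WT DT(+), -0.06 in OHC-TRECK DT(-) and -0.26 in OHC-TRECK DT(+). By its other probe, which matches the RefSeq mRNA, they were -2.23, -3.40, -4.08 and -4.31 in that order. The chosen probe put OHC-TRECK DT(+) a little below 3 nearly equal arrays, and the other probe put WT DT(-) far above the rest, with OHC-TRECK DT(+) 4.23-fold lower.

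The median log2 ratio of the enzymes in OHC-TRECK DT(+) was -0.16 against OHC-TRECK DT(-), -0.16 against WT DT(-) and -0.24 against WT DT(+). It was -0.19 in OHC-TRECK DT(-) against WT DT(-) and 0.03 in WT DT(+) against WT DT(-).

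Osteocyte hormones were both lowest in OHC-TRECK DT(+). Sost (sclerostin, the osteocyte inhibitor of Wnt signalling and bone formation) had log2 levels of -2.89 in WT DT(-), -2.40 in WT DT(+), -2.95 in OHC-TRECK DT(-) and -3.13 in OHC-TRECK DT(+). WT DT(+) stood above the 3 other arrays, which lay close together, and Sost was 1.66-fold lower in OHC-TRECK DT(+) than in WT DT(+). Fgf23 (the osteocyte hormone that lowers blood phosphate) had log2 levels of 2.95 in WT DT(-), 2.61 in WT DT(+), 2.43 in OHC-TRECK DT(-) and 2.31 in OHC-TRECK DT(+). WT DT(-) was highest for Fgf23, which was 1.56-fold lower in OHC-TRECK DT(+) than there and 1.09-fold lower than in OHC-TRECK DT(-).

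Ifitm5 (BRIL, a membrane protein of osteoblasts at mineralising bone) differed by genotype more than by toxin. The log2 levels of Ifitm5 were -3.49 in WT DT(-), -3.27 in WT DT(+), -4.12 in OHC-TRECK DT(-) and -4.41 in OHC-TRECK DT(+). Both OHC-TRECK arrays were well below both WT arrays. Ifitm5 was 1.23-fold lower in OHC-TRECK DT(+) than in OHC-TRECK DT(-), 1.90-fold lower than in WT DT(-) and 2.21-fold lower than in WT DT(+), and it was 1.55-fold lower in OHC-TRECK DT(-) than in WT DT(-).

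Pdpn (podoplanin, a membrane protein of young osteocytes that lymphatic vessels and fibroblasts also make) was higher after outer hair cell removal. Its log2 levels were 2.31 in WT DT(-), 2.30 in WT DT(+), 2.34 in OHC-TRECK DT(-) and 2.72 in OHC-TRECK DT(+), with the first 3 nearly equal. It was 1.30-fold higher in OHC-TRECK DT(+) than in OHC-TRECK DT(-), and its other probe gave log2 levels of -2.75, -2.71, -2.87 and -2.41 in that order, also highest in OHC-TRECK DT(+).

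Panx3 (a channel protein of osteoblasts and cartilage cells) followed the toxin in both genotypes. The log2 levels of Panx3 were -3.67 in WT DT(-), -3.10 in WT DT(+), -3.93 in OHC-TRECK DT(-) and -3.20 in OHC-TRECK DT(+). Both toxin arrays were above both untreated ones, and Panx3 was 1.65-fold higher in OHC-TRECK DT(+) than in OHC-TRECK DT(-) and 1.49-fold higher in WT DT(+) than in WT DT(-). Pth1r (the receptor of parathyroid hormone) had log2 levels of 0.54, 0.42, 0.29 and 0.21 in WT DT(-), WT DT(+), OHC-TRECK DT(-) and OHC-TRECK DT(+), with the OHC-TRECK arrays lower.

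The median log2 ratio of these 6 membrane proteins and hormones in OHC-TRECK DT(+) was -0.10 against OHC-TRECK DT(-), -0.28 against WT DT(-) and -0.25 against WT DT(+). It was -0.25 in OHC-TRECK DT(-) against WT DT(-) and 0.10 in WT DT(+) against WT DT(-).

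Among the ligands, Tnfrsf11b (osteoprotegerin, the decoy that binds RANKL and restrains osteoclasts) was the clearest exception to the low levels. The log2 levels of Tnfrsf11b were 3.18 in WT DT(-), 3.40 in WT DT(+), 3.57 in OHC-TRECK DT(-) and 4.04 in OHC-TRECK DT(+). Both OHC-TRECK arrays were above both WT arrays, and the toxin array was higher in each genotype. Tnfrsf11b was 1.39-fold higher in OHC-TRECK DT(+) than in OHC-TRECK DT(-), 1.82-fold higher than in WT DT(-) and 1.56-fold higher than in WT DT(+). It is also made by other cells of the inner ear, and their part in its level was not tested.

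Bmp8a (a bone morphogenetic protein) had log2 levels of -1.20 in WT DT(-), -1.14 in WT DT(+), -1.21 in OHC-TRECK DT(-) and -1.74 in OHC-TRECK DT(+). The first 3 arrays were nearly equal, with a range of 0.07, and OHC-TRECK DT(+) lay 0.53 below the nearest of them. Bmp8a was 1.44-fold lower there than in OHC-TRECK DT(-), 1.45-fold lower than in WT DT(-) and 1.51-fold lower than in WT DT(+). Bmp3 (a bone morphogenetic protein that opposes bone formation) had log2 levels of -3.74, -3.76, -3.95 and -4.16 in WT DT(-), WT DT(+), OHC-TRECK DT(-) and OHC-TRECK DT(+), with the OHC-TRECK arrays lower.

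The 3 measured genes among the ligands and the decoy had a median log2 ratio in OHC-TRECK DT(+) of -0.20 against OHC-TRECK DT(-), -0.42 against WT DT(-) and -0.40 against WT DT(+). It was -0.01 in OHC-TRECK DT(-) against WT DT(-) and 0.06 in WT DT(+) against WT DT(-). With Tnfsf11 not measured, the balance of RANKL and its decoy could not be read.

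By a rule chosen after the values were seen, members were counted whose level in OHC-TRECK DT(+) lay outside the other 3 arrays by more than the range of those 3. Of 26 members well above background on all 4 arrays, 6 lay below in this way (Bglap, Dmp1, Omd, Smpd3, Enpp1 and Bmp8a), beside 15.2% of 15242 genes, and 3 lay above (Pdpn, Mmp14 and Tnfrsf11b), beside 16.2%. These counts do not set the members far from genes in general, and among the 6 the gaps were wide for Bglap and Bmp8a and at most 0.19 for the others.

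Other probes bear on the osteocalcin result. Mouse chromosome 3 carries 3 neighbouring osteocalcin genes of near-identical sequence, Bglap, Bglap2 and Bglap3, and the array has probes for each. The brightest Bglap2 probe had log2 levels of 4.96 in WT DT(-), 5.19 in WT DT(+), 4.77 in OHC-TRECK DT(-) and 4.09 in OHC-TRECK DT(+), and the array files assign it to transcripts of both Bglap and Bglap2. The brightest Bglap3 probe had log2 levels of 5.16, 5.28, 4.89 and 4.34 in that order, and is assigned to Bglap and Bglap3. Both probes ranked the 4 arrays as the chosen Bglap probe did, with WT DT(+) highest and OHC-TRECK DT(+) lowest.

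Of the 2 probes assigned to Bglap3 alone, the brighter had log2 levels of 4.44 in WT DT(-), 4.66 in WT DT(+), 4.28 in OHC-TRECK DT(-) and 3.57 in OHC-TRECK DT(+), in the same order of arrays. The other of the 2, near the start of the transcript, had log2 levels of -1.44, -1.50, -1.33 and -1.29 and did not share that order, being nearly flat and highest in OHC-TRECK DT(+). The 2 probes thus differ in direction. No RefSeq mRNA listed for the other Bglap probe could be assigned to a gene. That probe had log2 levels of -3.89, -3.27, -3.82 and -4.30, again highest in WT DT(+) and lowest in OHC-TRECK DT(+). Thus 5 of the 6 osteocalcin probes put OHC-TRECK DT(+) lowest, and because some of them can bind RNA of more than 1 copy they are not separate measures of each gene.

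The sequences of 3 of these probes are shown because the osteocalcin result rests on them, and those of Bglap2 and Bglap3 because they overlap. They are printed 5′ to 3′ on the minus strand of chromosome 3 in build mm9, at chr3:88188307-88188366 for Bglap, chr3:88181822-88181881 for Bglap2 and chr3:88172673-88172732 for the brighter of the 2 probes assigned to Bglap3 alone. Capitals mark the start codon in the Bglap probe, at base 30, and in the other 2 the bases that are identical where the probes overlap. The end of the Bglap2 probe overlaps the start of the Bglap3 probe by 25 bases, of which 23 are identical. The differences are G37A and G51A, the Bglap2 base first, with positions counted from 1 at the 5′ end of the Bglap2 probe.
Bglap probe: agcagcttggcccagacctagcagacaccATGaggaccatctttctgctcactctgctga
Bglap2 probe: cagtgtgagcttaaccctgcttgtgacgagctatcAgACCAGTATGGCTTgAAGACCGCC
Bglap3 probe: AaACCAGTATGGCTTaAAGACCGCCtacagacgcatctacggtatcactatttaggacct

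**Figure D3:**
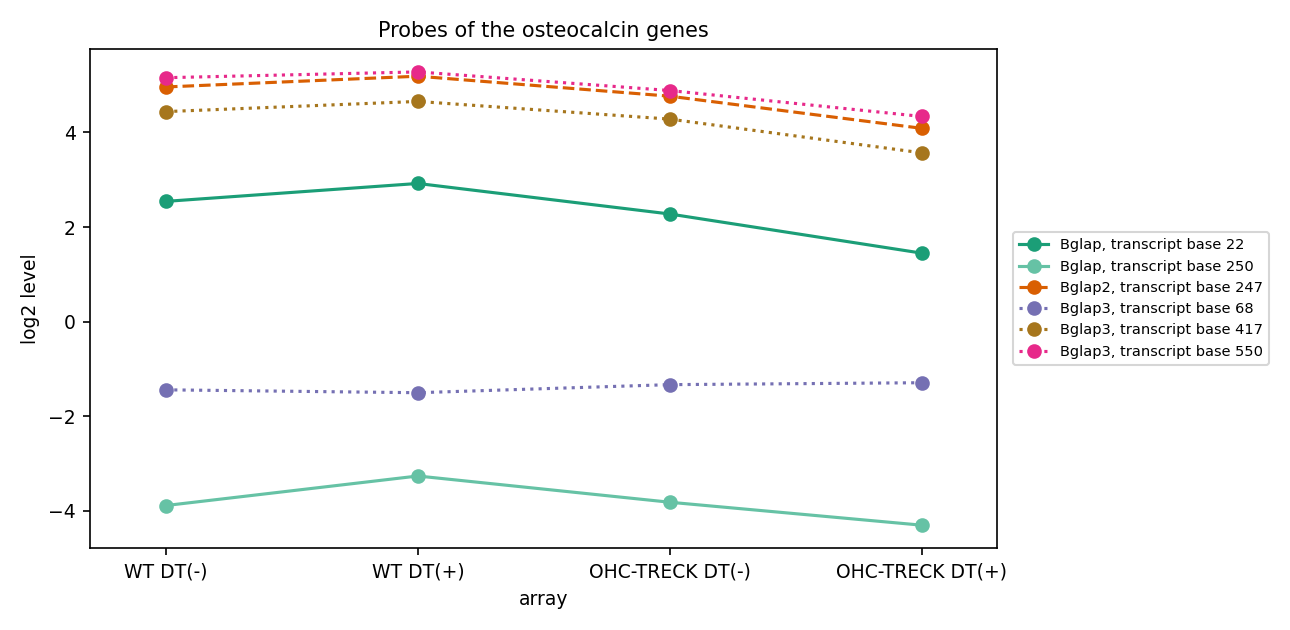
Log2 levels of the 6 probes of Bglap, Bglap2 and Bglap3 on the 4 arrays, named by gene and by the first base of the probe in its transcript. All but the Bglap3 probe at base 68 are lowest in OHC-TRECK DT(+).

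Of the members, 24 had 1 probe and 7 had several, with 40 probes in all. The other Ibsp probe was lowest in OHC-TRECK DT(-), unlike the chosen one. It gave log2 levels of -0.43 in WT DT(-), 0.29 in WT DT(+), -0.74 in OHC-TRECK DT(-) and -0.68 in OHC-TRECK DT(+). The WT arrays were again above the OHC-TRECK arrays. The other 2 Sparc probes were highest in OHC-TRECK DT(+), with log2 levels of 3.51, 3.43, 3.52 and 3.95 for 1 of them and -3.12, -3.12, -2.94 and -2.82 for the other, in the order of arrays just given. Sparc therefore has no direction that its 3 probes share, and a second Fgf23 probe was dim on every array.

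Promoter sequence is shown for the 2 members that were at least 2-fold lower in OHC-TRECK DT(+) than on both WT arrays, Bglap and Mmp13, a choice made after the values were seen and lost for Bglap with the mean of its probes. Both genes are known targets of Runx2 in osteoblasts. RefSeq promoter windows on GRCm38.p6 were found for 22 of the 31 members, with 27 windows of 300 bases. The core of RUNX sites, TGTGGT, read on both strands, was present in 8 of the 27 windows (29.6%), beside 16.8% of 32851 windows of all genes. These 8 belong to Bglap, Dmp1, Enpp1, Mepe, Mmp13, Mmp14, Runx2 and Sparc. The core of homeodomain sites, TAATTA, was present in 3 of the 27 (11.1%), those of Mepe, Msx2 and Pth1r, beside 5.29% of all windows. Mepe is the 1 member with a match to both, and its matches do not overlap. A match describes the letters and does not show that a factor binds.

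The 250 bases before the transcription start are at chr3:88384467-88384716 on the minus strand for Bglap and at chr9:7272264-7272513 on the plus strand for Mmp13. Each is printed on the strand of its gene, and capitals mark the match to the RUNX core, which reads ACCACA on this strand. The match begins 132 bases before the start in Bglap and 118 before it in Mmp13.
Bglap promoter: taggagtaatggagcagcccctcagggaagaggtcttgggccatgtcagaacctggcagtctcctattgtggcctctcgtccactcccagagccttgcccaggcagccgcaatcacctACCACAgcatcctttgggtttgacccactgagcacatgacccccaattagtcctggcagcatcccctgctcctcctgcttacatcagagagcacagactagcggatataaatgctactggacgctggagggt
Mmp13 promoter: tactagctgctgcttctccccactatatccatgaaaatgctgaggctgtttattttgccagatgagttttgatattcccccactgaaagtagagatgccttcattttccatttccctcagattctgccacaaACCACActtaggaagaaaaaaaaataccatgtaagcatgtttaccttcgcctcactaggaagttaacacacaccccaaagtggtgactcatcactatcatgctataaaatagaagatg

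Genes of bone-forming cells outside the 31 had medians near 0, and more of them were 1.5-fold lower than 1.5-fold higher in OHC-TRECK DT(+). Of 50 such genes, collagens among them, 49 were measured, and Tnc had no probe well above background. Their median log2 ratio in OHC-TRECK DT(+) was 0.03 against OHC-TRECK DT(-), 0.00 against WT DT(-) and -0.02 against WT DT(+), and it was -0.05 in OHC-TRECK DT(-) against WT DT(-) and -0.01 in WT DT(+) against WT DT(-). By 1.5-fold against OHC-TRECK DT(-), 3 of 49 were lower, beside 3.69% of all genes, and 2 were higher, beside 5.07%. Against WT DT(-), 5 of 49 were lower, beside 5.59%, and 1 was higher, beside 4.60%. Both counts of higher genes hold Ostn, described below, which was measured only through OHC-TRECK DT(+), the array where it was high. Against WT DT(+), 10 of 48 were lower, beside 4.41%, and 0 were higher, beside 3.94%. The comparison with WT DT(+) also held the most members lower by this fold. Their levels as ratios to the 75th percentile summed to 324 in WT DT(-), 334 in WT DT(+), 315 in OHC-TRECK DT(-) and 317 in OHC-TRECK DT(+), with Spp1 (osteopontin, which macrophages also make) the brightest. The sum for the members was 154, 142, 137 and 137 in the same order, most of it from Sparc.

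Col1a1 (the main collagen chain of bone) had log2 levels of 2.50 in WT DT(-), 2.75 in WT DT(+), 1.99 in OHC-TRECK DT(-) and 1.52 in OHC-TRECK DT(+). These levels follow the order of the Bglap levels, and Col1a1 was 1.39-fold lower in OHC-TRECK DT(+) than in OHC-TRECK DT(-), 1.98-fold lower than in WT DT(-) and 2.36-fold lower than in WT DT(+). The partner chain Col1a2, also named after its values were seen, had log2 levels of 5.06, 5.03, 4.95 and 5.22 in WT DT(-), WT DT(+), OHC-TRECK DT(-) and OHC-TRECK DT(+), and was highest where Col1a1 was lowest. Among those of the 50 genes that were well above background on both OHC-TRECK arrays, the 5 lowest in OHC-TRECK DT(+) against OHC-TRECK DT(-) were Kl (the FGF23 co-receptor) at a log2 ratio of -0.90, Mef2c at -0.77, Bglap2 at -0.68, Bglap3 at -0.55 and Col1a1 at -0.48. The 5 highest by the same rule were Cd44 (a receptor for hyaluronan and osteopontin) at 0.70, Spp1 at 0.39, Bmp7 at 0.36, Bmp4 at 0.34 and Cdh11 at 0.31. Outside that rule, Ostn (osteocrin, a secreted protein of osteoblasts), named after its values were seen, was well above background in OHC-TRECK DT(+) alone and at least 2.26-fold higher there than in OHC-TRECK DT(-), the highest of the list.

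Marrow cells lie in bone, and 3 lists of blood-forming genes had higher medians in WT DT(+) than in WT DT(-). Of the 29 measured members, 13 had their highest level in WT DT(+), beside 15.3% of all genes. For the neutrophil list, 14 of 14 genes were measured, S100a9 was the brightest, and the levels summed to 39.5 in WT DT(-), 62.3 in WT DT(+), 14.2 in OHC-TRECK DT(-) and 24.5 in OHC-TRECK DT(+). Its median log2 ratio was 0.72 in WT DT(+) and -1.42 in OHC-TRECK DT(-), each against WT DT(-). In OHC-TRECK DT(+) it was 0.71 against OHC-TRECK DT(-), -0.64 against WT DT(-) and -1.43 against WT DT(+). Cxcr2 was well above background in WT DT(+) alone, and its bounds enter the medians of 0.72 and -1.43. In OHC-TRECK DT(+), 10 of 13 neutrophil genes with a ratio were lower than in WT DT(-), beside 54.1% of all genes. Lcn2, Retnlg and Mmp8 were higher. Against OHC-TRECK DT(-), 13 of 13 were higher, where 52.4% of all genes were lower, and Bglap was lower.

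For the erythroid list, 11 of 12 genes were measured, Ahsp was not, Hba-a1 was the brightest, and the levels summed to 67.4 in WT DT(-), 85.3 in WT DT(+), 80.1 in OHC-TRECK DT(-) and 86.7 in OHC-TRECK DT(+). Its median log2 ratio was 1.30 in WT DT(+) and -0.00 in OHC-TRECK DT(-), each against WT DT(-). In OHC-TRECK DT(+) it was 0.52 against OHC-TRECK DT(-), 0.41 against WT DT(-) and -1.23 against WT DT(+). The -1.23 is the bound of Epb42 (Epb4.2 on the array), which was well above background in WT DT(+) alone. That gene was measured only through the array where it was high, and it also enters the median of 1.30. For the B lineage list, 12 of 12 were measured, Ebf1 was the brightest, and the levels summed to 4.91, 6.53, 4.75 and 5.09 in WT DT(-), WT DT(+), OHC-TRECK DT(-) and OHC-TRECK DT(+). Its median was 0.67 in WT DT(+) against WT DT(-), -0.29 in OHC-TRECK DT(-) against WT DT(-), and in OHC-TRECK DT(+) 0.11 against OHC-TRECK DT(-), -0.03 against WT DT(-) and -0.80 against WT DT(+). Igll1 was not well above background in WT DT(-), nor was Pax5 in OHC-TRECK DT(+). The bound of Igll1 helps to set the 0.67, and that of Pax5 the -0.80. The part of marrow cells in the levels of the bone-forming genes was not tested.

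Cells that remodel bone or join it were read in the same way. For osteoclasts, which resorb bone, 15 of 16 genes were measured, Siglec15 was not, Car2 was the brightest, and the levels summed to 24.2 in WT DT(-), 26.7 in WT DT(+), 25.2 in OHC-TRECK DT(-) and 31.1 in OHC-TRECK DT(+). Osteoclast genes had a median log2 ratio of 0.04 in OHC-TRECK DT(+) against OHC-TRECK DT(-), -0.08 against WT DT(-) and -0.11 against WT DT(+), -0.06 in OHC-TRECK DT(-) against WT DT(-), and 0.04 in WT DT(+) against WT DT(-). Acp5 (tartrate-resistant acid phosphatase), named after its values were seen, had log2 levels of 1.82, 1.41, 0.30 and 0.06 in WT DT(-), WT DT(+), OHC-TRECK DT(-) and OHC-TRECK DT(+), with both OHC-TRECK arrays lower, as for Ibsp and Alpl. In OHC-TRECK DT(-) against WT DT(-), Acp5 was 2.86-fold lower. Atp6v0d2, Calcr and Mmp9 were well above background in WT DT(-) and on neither OHC-TRECK array. They were measured only through WT arrays, and nothing is read from their number. Their ratios enter the osteoclast medians against WT DT(-), and that of Mmp9 also enters the median against WT DT(+). No direction is therefore read from these medians. The part of osteoclasts in the result was not tested.

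For cartilage cells, 13 of 15 genes were measured, Col10a1 and Matn3 were not, Ucma was the brightest, and the levels summed to 79.8 in WT DT(-), 78.3 in WT DT(+), 88.4 in OHC-TRECK DT(-) and 85.8 in OHC-TRECK DT(+). The median log2 ratio of the cartilage genes in OHC-TRECK DT(+) was 0.16 against OHC-TRECK DT(-), 0.27 against WT DT(-) and 0.27 against WT DT(+), 0.16 in OHC-TRECK DT(-) against WT DT(-), and -0.01 in WT DT(+) against WT DT(-). Matn1 (a cartilage matrix protein) was more than 2-fold higher in OHC-TRECK DT(+) than on each other array. Col10a1 marks hypertrophic cartilage, and the part of cartilage cells in the result was not tested.

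For fibroblasts and periosteum, 9 of 10 genes were measured, Dpt was not, Dcn was the brightest, and the levels summed to 104 in WT DT(-), 93.5 in WT DT(+), 97.5 in OHC-TRECK DT(-) and 114 in OHC-TRECK DT(+). Their median log2 ratio in OHC-TRECK DT(+) was 0.20 against OHC-TRECK DT(-), -0.02 against WT DT(-) and 0.14 against WT DT(+), -0.11 in OHC-TRECK DT(-) against WT DT(-), and -0.12 in WT DT(+) against WT DT(-).

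Of the macrophage genes, 13 of 14 were higher in OHC-TRECK DT(+) than on each other array, beside 31.2% of all genes. Itgam was lower, by 1.68-fold against WT DT(-). All 14 were measured, Csf1r was the brightest, and the levels summed to 28.8 in WT DT(-), 25.8 in WT DT(+), 23.3 in OHC-TRECK DT(-) and 37.7 in OHC-TRECK DT(+). Macrophage genes had a median log2 ratio in OHC-TRECK DT(+) of 1.03 against OHC-TRECK DT(-), 0.78 against WT DT(-) and 0.88 against WT DT(+), -0.22 in OHC-TRECK DT(-) against WT DT(-), and -0.06 in WT DT(+) against WT DT(-). Cd68, Cd14, C1qb, Lyz2 and Adgre1 (Emr1 on the array) were at least 2-fold higher in all 3 comparisons, and their part in the levels of the members that were higher there was not tested.

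Other tissues of the cochlea were read too. For fibrocytes of the spiral ligament and limbus, 8 of 8 genes were measured, Otos was the brightest, and the levels summed to 329 in WT DT(-), 340 in WT DT(+), 306 in OHC-TRECK DT(-) and 316 in OHC-TRECK DT(+). For these fibrocytes the median log2 ratio in OHC-TRECK DT(+) was 0.14 against OHC-TRECK DT(-), 0.15 against WT DT(-) and 0.14 against WT DT(+), -0.04 in OHC-TRECK DT(-) against WT DT(-), and -0.05 in WT DT(+) against WT DT(-). For the stria vascularis, 8 of 8 were measured, Dct was the brightest, and the levels summed to 109, 109, 104 and 123 in the same order. Its median in OHC-TRECK DT(+) was 0.24 against OHC-TRECK DT(-), 0.30 against WT DT(-) and 0.21 against WT DT(+), 0.02 in OHC-TRECK DT(-) against WT DT(-), and 0.20 in WT DT(+) against WT DT(-). In both lists the medians in OHC-TRECK DT(+) were above 0, on the other side of 0 from those of the members. The other genes of bone-forming cells had medians there of 0.03 against OHC-TRECK DT(-), 0.00 against WT DT(-) and -0.02 against WT DT(+).

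For inner hair cells and supporting cells, 8 of 8 genes were measured, S100b was the brightest, and the levels summed to 151 in WT DT(-), 135 in WT DT(+), 156 in OHC-TRECK DT(-) and 160 in OHC-TRECK DT(+). Their median log2 ratio in OHC-TRECK DT(+) was -0.18 against OHC-TRECK DT(-), 0.02 against WT DT(-) and -0.19 against WT DT(+), 0.12 in OHC-TRECK DT(-) against WT DT(-), and 0.00 in WT DT(+) against WT DT(-). The outer hair cell genes summed to 23.3, 21.7, 23.8 and 4.79 in the same order, with medians of 0.06 in OHC-TRECK DT(-) against WT DT(-) and 0.16 in WT DT(+) against WT DT(-).

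Several genes of skeletal muscle were not detected. Of 10 muscle genes, 6 were measured, Tnni2 was the brightest, the levels summed to 0.315 in WT DT(-), 0.237 in WT DT(+), 0.271 in OHC-TRECK DT(-) and 0.281 in OHC-TRECK DT(+), and Ckm, Myh1, Myh2 and Actn3 had no probe well above background. The median log2 ratio in OHC-TRECK DT(+) was -0.36 against OHC-TRECK DT(-), -0.24 against WT DT(-) and 0.09 against WT DT(+), -0.06 in OHC-TRECK DT(-) against WT DT(-), and -0.44 in WT DT(+) against WT DT(-).

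**Figure D4:**
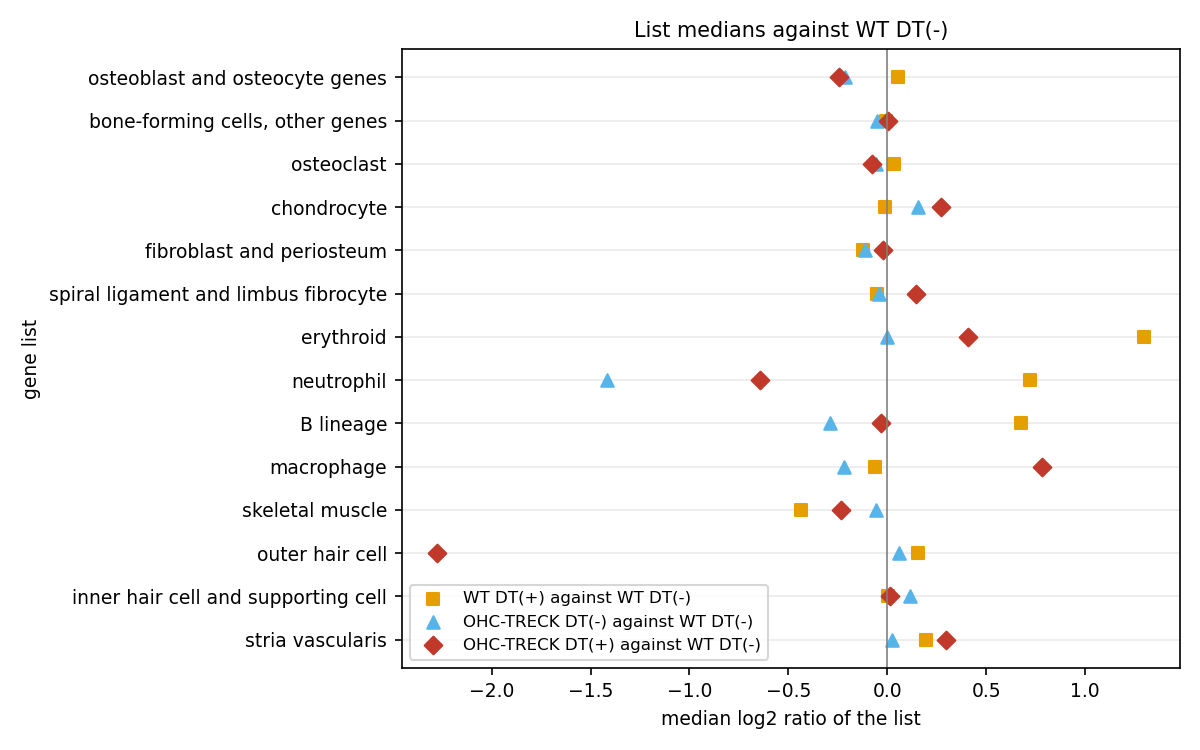
Median log2 ratio of each gene list on 3 arrays against WT DT(-). The member list lies at -0.24 in OHC-TRECK DT(+) and -0.21 in OHC-TRECK DT(-), and the other bone-forming genes lie at 0.00 and -0.05. The outer hair cell list lies at -2.28 in OHC-TRECK DT(+).

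The arrays did not detect the same share of probes. Of all probes, 67.0% were well above background in WT DT(-), 62.5% in WT DT(+), 70.6% in OHC-TRECK DT(-) and 62.2% in OHC-TRECK DT(+). The share was lowest on the 2 toxin arrays, where Runx2 was not well above background. Its signal in WT DT(+) was all the same not below those of the DT(-) groups. Repeated spots of a probe on 1 array differed by a median SD of 0.0607 to 0.0713 on the log2 scale, which is the error of a spot and not of an animal or of a group. The number of arrays limits the precision of every value given here.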

How the data were processed

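Cochlear RNA of 4 groups was measured on 1 array each. The deposited intensity of a spot is linear, after background subtraction by Agilent Feature Extraction 11.5.1.1. The value table of the authors holds the same scaled intensity, divided by 1 constant per array, and served as an alternative. Control spots and outlier spots (149, 149, 160 and 228) were left out, repeated spots were averaged, signals were scaled to the 75th percentile of their array, and log2 levels and ratios were computed here. A probe counted as well above background when more than 0.5 of its spots were called so. No paired analysis was possible because each group has 1 array, and no test was made.

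Members and lists were chosen with earlier results of these data known. Named are all 31 members, the brightest gene of each of 13 other lists (184 genes), list genes 2-fold changed in OHC-TRECK DT(+) against all 3 other groups, and the 5 lowest and 5 highest other bone genes against OHC-TRECK DT(-) that were well above background on both arrays. The alternatives changed background correction (normexp, offset 50), scaling, floor, filter, probe choice, source and fold. Steps were tested on simulated data. Python 3.11.15, numpy 2.4.6, pandas 2.3.3, matplotlib 3.10.9, R 4.3.3 and limma 3.58.1 were used.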

Additional observations from a re-analysis of the deposited data

Results flagged for a closer look

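No member was 1.5-fold or more higher with the toxin in 1 genotype and 1.5-fold or more lower with it in the other (0 of 27 with both ratios, beside 0.714% of 15977 genes). The sign of the change differed between genotypes for 17 of 27 members, beside 42.7% of these genes. Of the 27, 13 were higher with the toxin in WT and lower with it in OHC-TRECK, beside 18.7%. These differences were not tested.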

How the results depend on the processing

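The results were recomputed under 9 other settings, with 2 more chosen after seeing the data: probes matched to a RefSeq mRNA, and the list without Bglap. Every median of the member list kept its sign: it ranged from -0.12 to -0.09 in OHC-TRECK DT(+) against OHC-TRECK DT(-), from -0.25 to -0.21 against WT DT(-) and from -0.30 to -0.24 against WT DT(+). In WT DT(+) against WT DT(-) it ranged from 0.05 to 0.08. In OHC-TRECK DT(-) against WT DT(-) the median of -0.21 became -0.13 with the mean of a gene's probes and -0.12 with quantile normalization. The median difference of the toxin change between genotypes, -0.16, became -0.08 with the mean of probes, -0.09 with normexp and -0.08 with RefSeq mRNA probes. The cause was not tested.

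Counts of members 2-fold lower rest on few genes. At 1.5-fold they became 2 against OHC-TRECK DT(-), 4 against WT DT(-) and 8 against WT DT(+) for OHC-TRECK DT(+), and 3 in OHC-TRECK DT(-) against WT DT(-). For OHC-TRECK DT(+) against OHC-TRECK DT(-), the count of 0 became 1 with no floor on dim signals. For OHC-TRECK DT(+) against WT DT(+), the count of 4 became 2 with normexp, 2 with genes well above background on all 4 arrays, 3 without Bglap and 5 with quantile normalization. For OHC-TRECK DT(+) against WT DT(-), the count of 2 became 1 with the all-array filter, 1 without Bglap, 3 with no floor and 3 with RefSeq mRNA probes. With the mean of probes it was 2, with Enpp1 in place of Bglap. With RefSeq mRNA probes the count of 1 became 2 in OHC-TRECK DT(-) and 2 in WT DT(+), each against WT DT(-), and with the all-array filter it became 0 in both. These filters remove Mmp13 or Dlx6, or bring in the other Enpp1 probe.

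Members lowest in OHC-TRECK DT(+) numbered 16 to 19, and members highest in WT DT(+) 12 to 14. Of 1131 single member values under settings that could change them, 1057 moved by no more than the spread of repeated spots and 74 moved further. The sign changed in 18 of the 1131, and in 0 of those that were past 2-fold as reported. The change of sign was widest where the probes of a gene differ: with RefSeq mRNA probes, Enpp1 went from 0.03 to -1.85 in OHC-TRECK DT(-) against WT DT(-), and with the mean of its probes Sparc went from -0.24 to 0.17 in OHC-TRECK DT(+) against WT DT(-). Signal over background limits Runx2, Dlx6 and Mmp13, whose ratios to OHC-TRECK DT(+) are bounds.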
